A study of Mus musculus with 6 samples.

Results

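The clustered protocadherins are cell-surface proteins of neurons encoded by 3 neighbouring gene clusters named alpha, beta and gamma. The members described here are the genes that the GENCODE M21 mouse annotation marks as protein coding and names Pcdha, Pcdhac, Pcdhb, Pcdhga, Pcdhgb or Pcdhgc followed by a number. The rule gave 57 of the 35523 genes with a listed transcript, of which 14 belong to the alpha cluster, 22 to beta and 21 to gamma. Whole forebrain was sequenced at P20, from 3 *Slc13a4*+/- mice (genotype Nas2Del +/- Het; Nas2Del_Het_1024, Nas2Del_Het_1025 and Nas2Del_Het_1027). The controls were 3 wild-type mice (Nas2Del_WT_1016, Nas2Del_WT_1018 and Nas2Del_WT_1026), described by the study as littermates. All 6 mice were on a C57BL/6 background. The *Slc13a4*+/- mice, bred from *Slc13a4*+/- males and wild-type females, lack 1 allele of a sulfate transporter gene, and the sources used here do not say which part of that allele is missing. The whole forebrain was taken, so every value is an average over many neurons and other cells.

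Each alpha or gamma protein is made from a variable exon of its own, with its own promoter, spliced to exons at the end of the cluster that all genes of the cluster share. The variable exon encodes the extracellular cadherin repeats, which bind the same isoform on a neighbouring membrane, and the shared exons encode the end of the cytoplasmic tail. Beta genes have no shared exons and encode the whole protein in a large exon. Most alpha, beta and gamma promoters are switched on in a seemingly random choice in each neuron, which gives sister neurons different surface identities used in self-avoidance of dendrites. The last genes of the alpha and gamma clusters (*Pcdhac1*, *Pcdhac2*, *Pcdhgc3*, *Pcdhgc4* and *Pcdhgc5*) are called C-type isoforms and are known to be regulated differently from the rest, several of them being present in most neurons of a type.

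The 57 genes lie on the plus strand of chromosome 18 of GRCm38 within 912 kb. The alpha genes span chr18:36930184-37187661, the beta genes chr18:37264938-37524479 and the gamma genes chr18:37661793-37841873. In the annotation, all 14 alpha genes share exons that start at 37156155, 37159265 and 37184946, and all 21 gamma genes share exons that start at 37825021, 37833265 and 37839903. A read from a shared exon therefore does not tell which gene it came from, and the program that made the deposited values, Salmon, divides such reads between the genes by a model. The share of a main transcript that is its own was measured as the share of its 31-base words found in no listed transcript of another gene. It was 2.2 to 51.6% in the alpha genes (median 37.35%), 32.2 to 58.3% in the gamma genes (median 53.0%) and 77.5 to 100% in the beta genes (median 88.15%). *Pcdha4* had the 2.2%, because the annotated read-through gene *Gm42416* uses its variable exon, so its count rests almost wholly on that model. M21 gives the symbol *Pcdha11* to 2 genes, and ENSMUSG00000007440 lies where RefSeq on GRCm38.p6 places *Pcdha10*. *Pcdhgb8* is annotated as a polymorphic pseudogene in M21 and is not a member.

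The libraries held 60340337 to 80410582 estimated counts, of which the 57 genes took 58978 to 85118, or 0.0984 to 0.1065%. All 57 had enough counts to be tested. The lowest was *Pcdhb1*, with 12 to 19 counts in a mouse, and the highest *Pcdhgc5*, with 8804 to 13615. *Slc13a4* itself averaged 5.86 CPM in *Slc13a4*+/- mice (SD 0.62, n = 3) and 9.35 CPM in wild-type mice (SD 1.10, n = 3), with no overlap. CPM stands for counts per 1000000 counts of the mouse after TMM normalization. Markers of brain regions outside the forebrain were low, with the raphe gene *Tph2* between 1.48 and 2.03 CPM and the cerebellar genes *Gabra6* and *Pcp2* at most 0.72 CPM and *Cbln3* at 1.08 to 2.37 CPM, all 3 highest in Nas2Del_Het_1024. Wild-type mouse Nas2Del_WT_1016 had 105 CPM of the Y-linked gene *Ddx3y*, against at most 0.033 CPM in the other 5 mice. The sources used here do not give the sex of the mice. By this gene Nas2Del_WT_1016 alone would be male, so sex would not be balanced between the genotypes. The part of sex in the values below was not tested.

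The first question was which clustered protocadherins the P20 forebrain expressed most. The C-type genes stood at the top in every mouse, apart from *Pcdhac1*. Levels of different genes were compared as TPM, which the authors scaled by transcript length. *Pcdhgc5* was highest at 96.4 TPM on average over the 6 mice. Its level was 93.5, 96.6 and 96.3 TPM in Nas2Del_Het_1024, Nas2Del_Het_1025 and Nas2Del_Het_1027. It was 101.4, 86.8 and 103.5 TPM in Nas2Del_WT_1016, Nas2Del_WT_1018 and Nas2Del_WT_1026, so the wild-type mice held both the lowest and the highest value.

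*Pcdhgc3* followed with 51.7 to 56.3 TPM over the 6 mice and a mean of 53.5 TPM. *Pcdhac2*, an alpha isoform known from mice to be needed for the spacing of serotonergic axons, came next with 30.0 to 34.8 TPM and a mean of 31.7 TPM. *Pcdhgc4*, known from mice to be needed for survival of cortical interneurons, had 15.7 to 17.5 TPM and a mean of 16.5 TPM. None of these 4 ranges overlapped the next, nor the range of any other member. *Pcdhga3* with 12.6 to 14.4 TPM and *Pcdhga11* with 11.8 to 13.6 TPM overlapped each other and lay above the next gene, *Pcdhb9*, with 9.71 to 10.7 TPM. From *Pcdhb9* down to *Pcdha1*, each gene overlapped the next in the order, and the highest beta genes *Pcdhb9* and *Pcdhb17* had means of 10.3 and 9.49 TPM. At the bottom, *Pcdha1* (1.72 to 2.33 TPM), *Pcdha8* (0.458 to 1.14 TPM) and *Pcdhb1* (0.132 to 0.208 TPM) did not overlap. *Pcdhgb6* was the highest gamma B gene at 9.42 TPM.

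Against the median of the genes of its cluster that are not C-type (12 in alpha, 18 in gamma) in the same mouse, *Pcdhgc5* was 15.1-fold higher on average, *Pcdhgc3* 8.38-fold, *Pcdhac2* 7.83-fold and *Pcdhgc4* 2.58-fold. *Pcdhac1* was different from the other C-type genes. Its level was 3.04, 3.19 and 3.09 TPM in the *Slc13a4*+/- mice and 2.80, 2.84 and 3.75 TPM in the wild-type mice, which is 0.769 times the median of the 12 alpha genes that are not C-type. Of those 12 genes, 2 lay below *Pcdhac1* in all 6 mice, while all 12 lay below *Pcdhac2* in all 6 mice. The value of *Pcdhgc5* depended in part on its short annotated transcripts. A transcript of 593 bases took 21.01 to 29.63 TPM and another of 444 bases took 2.52 to 7.20 TPM. The main transcript of *Pcdhgc5*, of 4741 bases, had 67.5 TPM on its own, which still placed it first among the main transcripts of all members at 10.7-fold over the median of the same 18 genes.

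**Figure D1:**
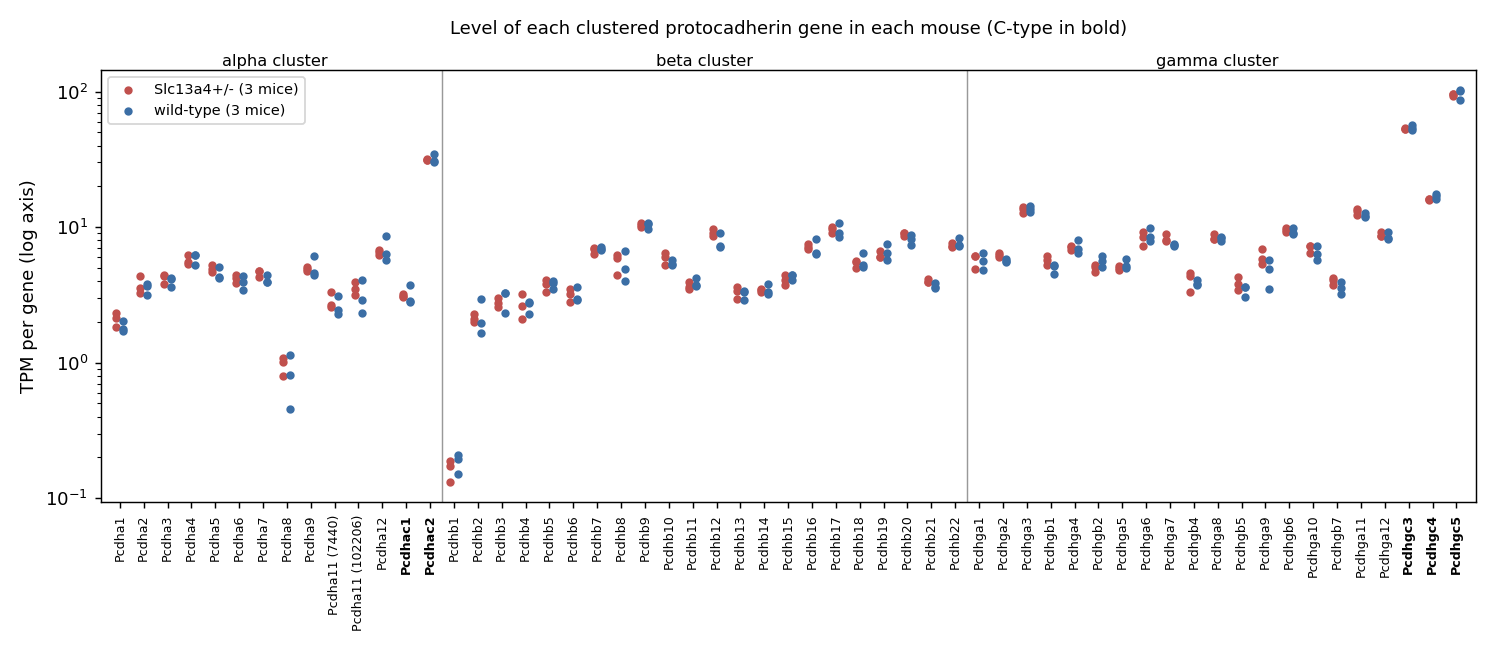
TPM per gene (y axis, log scale) of the 57 clustered protocadherin genes in their order along chromosome 18 (x axis), with a point for each mouse and C-type genes in bold; the number after *Pcdha11* is the end of its gene identifier. *Pcdhgc5*, *Pcdhgc3*, *Pcdhac2* and *Pcdhgc4* lie above every other gene in all 6 mice, *Pcdhac1* lies among the other alpha genes, and *Pcdhb1* is lowest at 0.175 TPM on average.

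Among the genes that are not C-type, levels within a cluster were of the same order with few exceptions. The median level was 4.07 TPM for the 12 alpha genes, 4.79 TPM for the 22 beta genes, 7.49 TPM for the 12 gamma A genes and 4.64 TPM for the 6 gamma B genes. In alpha, *Pcdha12* and *Pcdha4* were highest at 6.68 and 5.82 TPM and *Pcdha8* was lowest at 0.886 TPM. In gamma, the lowest genes were *Pcdhga5* at 5.17 TPM for gamma A and *Pcdhgb5* at 3.64 TPM for gamma B. In beta, *Pcdhb1* was far below the rest at 0.175 TPM, and none of its 31-base words occurs in another transcript. *Pcdhb1* is known as the beta gene whose promoter lacks the conserved sequence element of the other beta promoters. The order of the 52 genes was much the same in every mouse, with a Spearman correlation of 0.936 to 0.970 between the TPM values of any pair of mice. This describes these libraries, which share 1 annotation and the same gene lengths.

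In beta, genes further along the cluster had higher levels. The Spearman correlation between place and mean TPM was 0.63 over the 22 beta genes, and 0.591 to 0.622 within each mouse. The first 11 beta genes had a median of 3.76 TPM and the last 11 had 6.37 TPM. The same correlation was 0.161 over the 12 alpha genes that are not C-type and 0.110 over the 18 gamma A and gamma B genes. Neighbouring genes are similar in sequence, so these points are not independent.

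By summed TPM, the gamma cluster held 59.9% of clustered protocadherin RNA, beta 23.4% and alpha 16.7%. The sums were 293.4 TPM for gamma, 114.5 TPM for beta and 82.1 TPM for alpha on average. The gamma sum includes the 2 short *Pcdhgc5* transcripts, at 23.7 and 4.79 TPM on average. By summed CPM, which is not scaled by length, gamma held 57.9%, beta 21.6% and alpha 20.5%. The 5 C-type genes together held 41.1% of the summed TPM. Within the alpha cluster, the C-type share averaged 41.7% in *Slc13a4*+/- mice (SD 0.94, n = 3) and 43.1% in wild-type mice (SD 0.61, n = 3). The shares were 42.8, 41.5 and 40.9% against 43.8, 42.8 and 42.8%, which overlapped between the genotypes.

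Within the gamma cluster, the C-type share averaged 55.9% in *Slc13a4*+/- mice (SD 0.31, n = 3) and 57.4% in wild-type mice (SD 1.45, n = 3). The shares were 56.3, 55.7 and 55.9% against 59.0, 56.1 and 57.2%, which also overlapped, since Nas2Del_WT_1018 lay below Nas2Del_Het_1024. Whether the genotypes overlapped in gamma depended on the unit. As a share of estimated counts, the 3 *Slc13a4*+/- mice had 51.78 to 51.97% and the 3 wild-type mice 52.6 to 54.1%. With only the main transcript of each gene, the *Slc13a4*+/- mice had 51.4 to 51.9% of the gamma TPM and the wild-type mice 52.4 to 53.7%. No test was made on these sums over members.

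**Figure D2:**
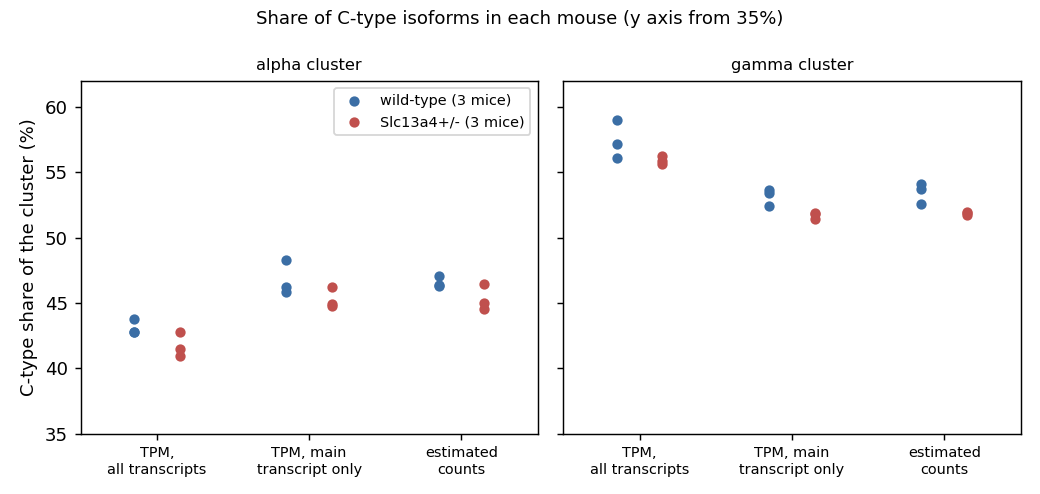
Share of C-type isoforms in the alpha and the gamma cluster (y axis, percent, starting at 35%) in each mouse, computed from the TPM of all transcripts, from the TPM of main transcripts and from estimated counts (x axis). In gamma the wild-type mice reach 59.0% and the *Slc13a4*+/- mice 56.3% with all transcripts, and the genotypes separate in the other 2 measures plotted.

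The second question was whether the loss of 1 *Slc13a4* allele changed these genes. The totals of the clusters were alike in both genotypes. The alpha total was 201.8, 208.3 and 210.8 CPM in the *Slc13a4*+/- mice and 199.2, 197.0 and 227.5 CPM in the wild-type mice. The beta total was 217.7, 216.9 and 219.2 CPM against 201.6, 215.6 and 240.1 CPM. The gamma total was 573.6, 590.6 and 584.3 CPM against 580.8, 563.2 and 623.8 CPM. In all 3 clusters the *Slc13a4*+/- mice lay within the range of the wild-type mice, and Nas2Del_WT_1026 was the highest mouse.

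The log2 ratio, *Slc13a4*+/- over wild-type, was taken as the difference between the genotypes in the mean of the log2 totals. It was -0.0036 (SE 0.069, n = 3 per genotype) for alpha, -0.0039 (SE 0.073) for beta and -0.015 (SE 0.045) for gamma. These totals do not depend on how reads of shared exons were divided among the members of a cluster. They do depend on the division with overlapping genes that are not members. Of these, *Pcdhgb8* held 67.7 to 173.6 counts, and *Gm42416* held 91.9 counts in Nas2Del_Het_1025 and 0 in the other mice. With both added, the log2 ratio was -0.00056 for alpha and -0.013 for gamma. The 5 C-type genes together had a log2 ratio of -0.055 (SE 0.055) and the 52 others 0.020 (SE 0.057), with overlapping genotypes in both. Without Nas2Del_WT_1026 the log2 ratios were 0.063 for alpha, 0.064 for beta, 0.028 for gamma, -0.0049 for the C-type genes and 0.075 for the others. Without Nas2Del_WT_1018 that of the C-type genes was -0.099 and that of gamma -0.047, and without Nas2Del_WT_1016 that of beta was -0.057. In bulk tissue, fewer cells of a type and less RNA per cell cannot be told apart.

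**Figure D3:**
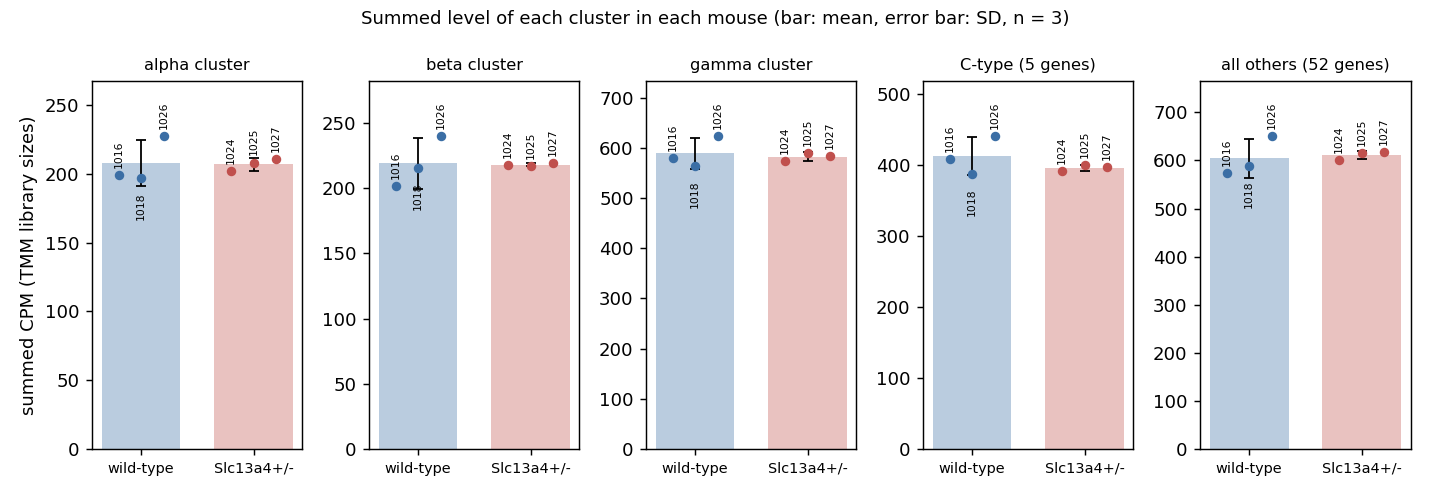
Summed CPM (y axis, from 0) of the alpha, beta and gamma clusters, of the 5 C-type genes and of the 52 other members in each mouse. Each point is a mouse, marked with its animal number, and each bar shows the mean of 3 mice with its SD. Nas2Del_WT_1026 is highest in every panel, at 227.5, 240.1 and 623.8 CPM for alpha, beta and gamma.

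None of the 57 genes passed the threshold between genotypes. At a Benjamini-Hochberg adjusted p under 0.1, edgeR's quasi-likelihood test called 0 of 57, where it called 0.00585% of the 17096 genes tested. The DESeq2 Wald test also called 0 of 57, both with average transcript lengths as offsets, where it called 0.502% of all genes, and without them, where it called 0.314%. *Slc13a4* itself was not called by edgeR (log2 fold change -0.67, SE 0.11, adjusted p = 0.499). DESeq2 with length offsets called *Slc13a4* at an adjusted p of 0.0024. A count of 0 in edgeR therefore does not show that the members were unchanged. At an unadjusted p under 0.05 in edgeR, 1 member was higher and 2 were lower in the *Slc13a4*+/- mice. The shares over all genes were 4.98% higher and 4.17% lower, 9.15% together. The log2 fold changes of the 57 genes had a median of 0.0015 and ran from -0.25 for *Pcdhgb2* to 0.32 for *Pcdhga9*, and the median of all genes tested was -0.0045. Of the members, 29 lay above 0 and 28 below.

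*Pcdhgb1* was the member with a smaller p on the higher side. It had 11.55, 12.67 and 11.69 CPM in the *Slc13a4*+/- mice and 10.06, 11.02 and 10.44 CPM in the wild-type mice, so that all *Slc13a4*+/- values lay above all wild-type values. This is 0.19 on the log2 scale in edgeR (SE 0.062, adjusted p = 0.499). An annotated processed transcript of *Pcdhgb1* held 0 counts in Nas2Del_Het_1024 and Nas2Del_WT_1016 and 125.0 to 245.0 counts in the other mice, so the division between its transcripts differed between mice.

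*Pcdhgb2* was on the lower side, with 9.75, 9.45 and 10.8 CPM in the *Slc13a4*+/- mice and 11.9, 10.6 and 13.1 CPM in the wild-type mice. The genotypes overlapped at Nas2Del_Het_1027 and Nas2Del_WT_1018. The difference was -0.25 on the log2 scale in edgeR (SE 0.087, adjusted p = 0.502).

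*Pcdhgc4* had 35.8, 35.7 and 35.8 CPM in the *Slc13a4*+/- mice and 39.1, 36.9 and 38.4 CPM in the wild-type mice. All *Slc13a4*+/- values lay below all wild-type values, and the log2 fold change of -0.09 (SE 0.036) had an adjusted p of 0.527 in edgeR. The log2 fold changes of the 5 C-type genes were all below 0, at -0.04 for *Pcdhac1*, -0.05 for *Pcdhac2*, -0.04 for *Pcdhgc3* and -0.06 for *Pcdhgc5* beside *Pcdhgc4*. Without Nas2Del_WT_1026, 3 of the 5 lay above 0.

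The genotypes did not overlap in 5 of the 57 genes, 4 with the *Slc13a4*+/- mice above and 1 below, where they did not overlap in 15% of all genes tested (7.26% above and 7.7% below). Besides *Pcdhgb1* and *Pcdhgc4* these were *Pcdhb21*, *Pcdhga2* and *Pcdhga7*, all higher in the *Slc13a4*+/- mice. They were named after their values were seen, apart from *Pcdhga2*. *Pcdhga2* had 13.6, 13.9 and 12.9 CPM against 12.80, 12.47 and 12.01 CPM, or 0.12 on the log2 scale (SE 0.053, adjusted p = 0.563 in edgeR).

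Other members with the smallest p of their cluster had overlapping genotypes and adjusted p of 0.568 or more in edgeR. In alpha, the log2 fold changes were 0.12 (SE 0.067) for *Pcdha7* and 0.16 (SE 0.11) for *Pcdha1*, with *Pcdha4* at -0.09 (SE 0.077) on the lower side. In beta, *Pcdhb12* had 0.19 (SE 0.090) and *Pcdhb20* 0.11 (SE 0.066), with *Pcdhb11* at -0.10 (SE 0.073) and *Pcdhb15* at -0.09 (SE 0.088) on the lower side.

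Wild-type mouse Nas2Del_WT_1026 bore on these values as a group. It was the highest of the 6 mice for 28 of the 57 genes, where it was highest for 21.8% of all genes tested. Nas2Del_WT_1016 was the lowest for 25 of the 57, where it was lowest for 19.9% of all genes. Without Nas2Del_WT_1026, 41 of the 57 log2 fold changes lay above 0, against 50.9% of all genes, and their median was 0.062. At an unadjusted p under 0.05 in edgeR, 11 were then higher and 0 lower in the *Slc13a4*+/- mice, where 9.43% of all genes were higher and 8.6% lower. *Pcdhb12* then passed the threshold in edgeR, as 1 of 57 where 1.29% of all genes passed, with a log2 fold change of 0.31 and an adjusted p of 0.098. DESeq2 without the same mouse called *Pcdhb12* and *Pcdhga9*, as 2 of the 45 members it gave an adjusted p, where it called 8.84% of all genes with one.

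*Pcdhb12* had 11.99, 12.51 and 13.12 CPM in the *Slc13a4*+/- mice and 10.1, 10.2 and 12.6 CPM in the wild-type mice. Its call rests on leaving out Nas2Del_WT_1026, which lay among the *Slc13a4*+/- mice. *Pcdhga9* had 11.52, 14.46 and 11.95 CPM in the *Slc13a4*+/- mice and 7.69, 10.5 and 12.1 CPM in the wild-type mice, with Nas2Del_WT_1026 again among the *Slc13a4*+/- mice. With all 6 mice edgeR gave it 0.32 on the log2 scale (SE 0.15, adjusted p = 0.579).

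Sums of cell type markers were read beside these totals. The 8 pan-neuronal markers summed to 7194 to 7280 CPM in the *Slc13a4*+/- mice and 7056 to 7524 CPM in the wild-type mice, highest in Nas2Del_WT_1026 and lowest in Nas2Del_WT_1016. Among the *Slc13a4*+/- mice they were highest in Nas2Del_Het_1024, which had the lowest total of the 57 genes. The astrocyte sum showed the same extremes, with 5087 to 5160 CPM against 4978 to 5574 CPM. Most of it was *Slc1a2* (3877 to 3938 CPM against 3694 to 4282 CPM), and Nas2Del_WT_1026 was highest for 3 of the 6 markers. *Gfap* and *Aqp4* were instead highest in Nas2Del_WT_1016, at 151.5 and 126.6 CPM. These genes were named after their values were seen. Nas2Del_WT_1026 was also highest for excitatory neuron markers (1853 to 1908 CPM against 1791 to 2076 CPM), inhibitory neuron markers (841 to 886 CPM against 856 to 927 CPM) and endothelial markers (143.9 to 155.1 CPM against 154.9 to 170.1 CPM). The wild-type mice lay above all *Slc13a4*+/- mice in 3 lists. These were immature neuron markers (668 to 696 CPM against 711 to 736 CPM), microglia markers (247.6 to 256.3 CPM against 265.1 to 269.2 CPM) and choroid plexus markers (386 to 449 CPM against 467 to 473 CPM). Most of the choroid plexus sum was *Ttr* (353 to 412 CPM against 430 to 437 CPM), named after its values were seen. Every other choroid plexus marker overlapped between the genotypes. Most of the immature neuron sum was *Stmn1* (388.5 to 413.3 CPM against 400.3 to 421.7 CPM), which overlapped. *Dcx* was the 1 marker of that list with a log2 fold change above 0, at 0.06. With length offsets, DESeq2 called *Nes*, *Tubb2b* and *Ttr* lower at adjusted p of 0.024, 0.071 and 0.091, where it called 0.502% of all genes. These genes were named after their values were seen. No cell type marker was called by edgeR on all 6 mice. Oligodendrocyte markers (6723 to 7816 CPM against 7608 to 8476 CPM) and ependymal markers (15.2 to 18.1 CPM against 17.9 to 19.9 CPM) overlapped. The part of these cell types in the values of the protocadherins was not tested.

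**Figure D4:**
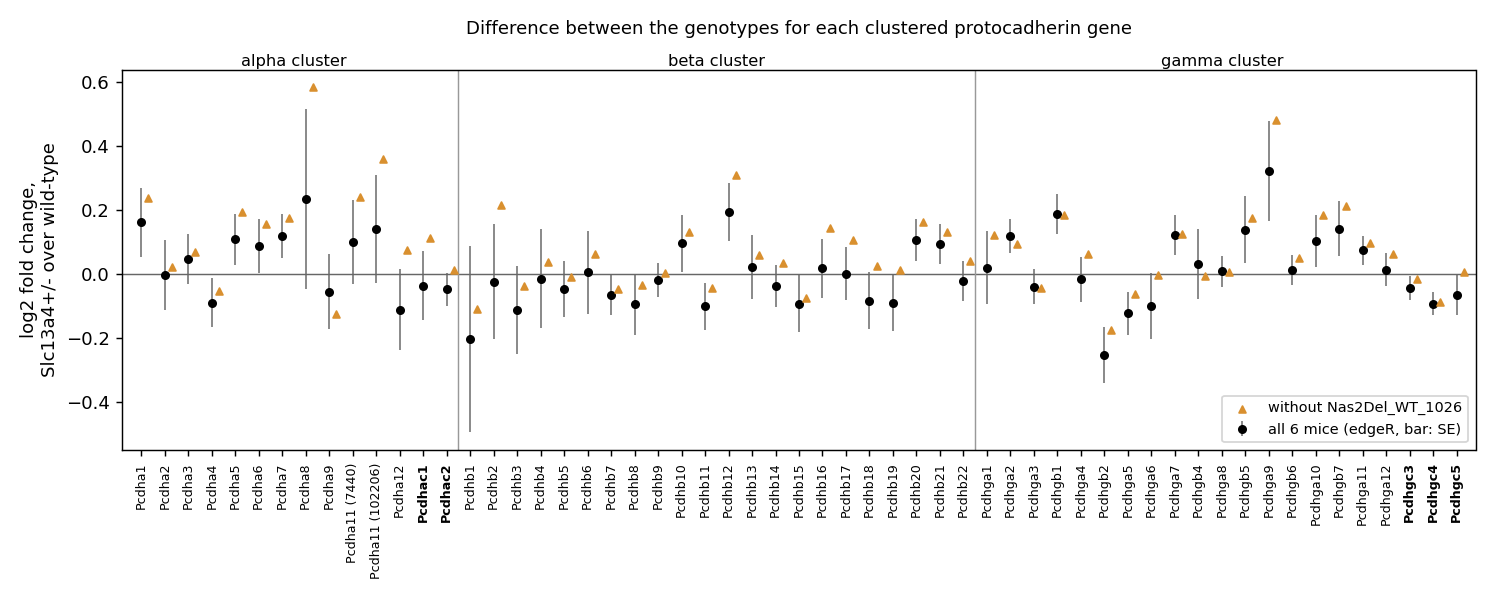
Log2 fold change, *Slc13a4*+/- over wild-type (y axis), of the 57 genes in their order along the chromosome (x axis), from edgeR with all 6 mice (circles, bars are SE) and without Nas2Del_WT_1026 (triangles). With all mice 29 genes lie above 0 and 28 below, and without Nas2Del_WT_1026 41 lie above 0.

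The third question was how far the genes varied between mice of the same genotype. Their median spread was above that of all genes. The within-genotype SD of log2(CPM + 0.5) had a median of 0.108 over the 57 genes and 0.0744 over all genes tested, and 44 of the 57 lay above the latter. Low counts alone raise this measure, so members were also set beside genes of like level. In bins of 1 log2 unit of CPM, 45 of the 57 lay above the median of all genes in their bin. The ratio of a gene's own dispersion in edgeR to the trend for its level had a median of 0.890 over the members and 0.671 over all genes. Without Nas2Del_WT_1026 these medians were 0.824 and 0.764, and without Nas2Del_Het_1024 they were 0.805 and 0.707.

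The median SD was 0.141 in alpha, 0.108 in beta and 0.083 in gamma, and 0.038 over the 3 gamma C-type genes. Relative to the trend for their level, the median dispersion ratio was 1.07 in alpha, 0.799 in beta and 0.842 in gamma, so beta lay above gamma in the SD and below it in the ratio. *Pcdha8* varied most, with an SD of 0.389. It had 2.52, 2.69 and 1.97 CPM in the *Slc13a4*+/- mice and 1.16, 2.05 and 2.86 CPM in the wild-type mice, so the wild-type mice held both extremes. Counting error alone would give an SD of 0.115 at its 77.0 to 222.7 counts, and the measured SD was 3.4 times that.

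The *Pcdha11* gene ENSMUSG00000102206 had an SD of 0.259 and *Pcdhga9* had 0.255, the latter 5.04 times its counting error. *Pcdhgc4*, *Pcdhgc3* and *Pcdhga2* varied least, with an SD of 0.030, 0.038 and 0.048. The SD of *Pcdhgc4* was 1.06 times the counting error. The SD of 0.068 for *Pcdhb1* is below its counting error of 0.379, since the added 0.5 exceeds its CPM of 0.15 to 0.24.

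**Figure D5:**
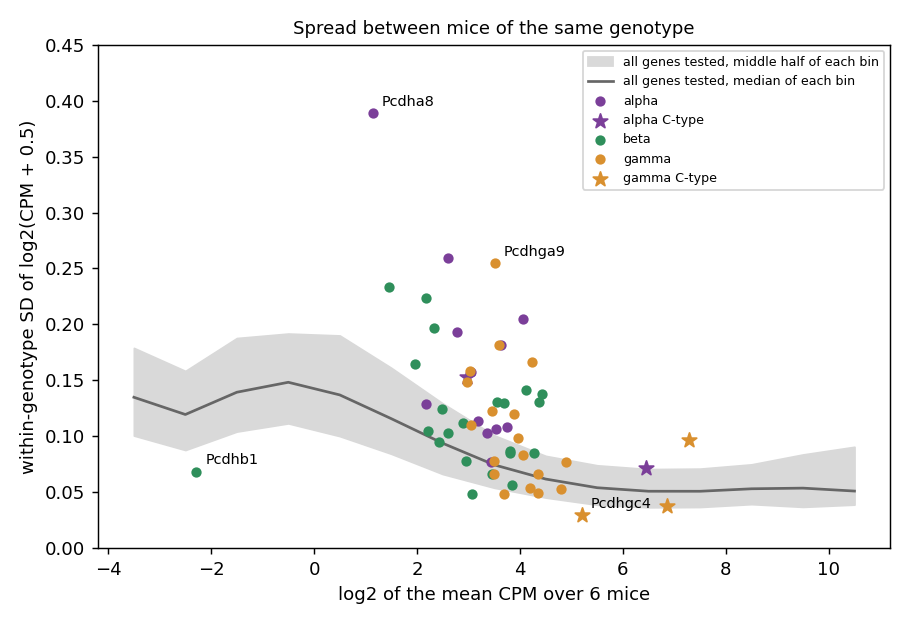
Within-genotype SD of log2(CPM + 0.5) (y axis) against the log2 mean CPM of the gene (x axis) for the 57 members, coloured by cluster with stars for C-type genes. The line is the median of all genes tested in bins of 1 log2 unit and the grey band runs from the 25th to the 75th percentile; 45 of the 57 members lie above the median of their bin, *Pcdha8* is highest at 0.389 and *Pcdhgc4* lowest at 0.030.

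The forms of some alpha genes were divided differently from mouse to mouse. In the alpha cluster, 5 genes have annotated forms that differ in the last shared exon, which is whole in the one form and spliced further in the other. For the *Pcdha11* gene ENSMUSG00000102206, the counts of these forms fell wholly on the further spliced form in Nas2Del_Het_1024, Nas2Del_Het_1025 and Nas2Del_WT_1018, and 0% did in Nas2Del_Het_1027 and Nas2Del_WT_1016. For *Pcdha2* the share of the further spliced form ran from 30.3 to 85.3% over the mice, and for *Pcdha1* it was 100% in all 6. Summed over the 5 genes it was 39.3 to 59.5%. Retained-intron transcripts took 1.24 to 2.13% of the alpha counts and 1.29 to 2.11% of the gamma counts. Over the whole transcriptome they took 1.81 to 2.45%.

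Other genes tied to the clustered protocadherins were read from the same fit, with edgeR on all 6 mice calling 0 of each list. Of 11 other protocadherins, relatives encoded outside the clusters, 0 were at an unadjusted p under 0.05, against 9.15% of all genes tested. Their median log2 fold change was -0.01. The smallest p was that of *Pcdh8*, with a log2 fold change of -0.09 (SE 0.070). Their sum was 1680 to 1711 CPM in the *Slc13a4*+/- mice and 1638 to 1792 CPM in the wild-type mice, highest in Nas2Del_WT_1026.

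Of 20 genes for promoter choice and chromatin, which include *Ctcf* and the cohesin subunits that loop distant enhancers to protocadherin promoters, an unadjusted p under 0.05 was found for 2 on the higher and 1 on the lower side, against 4.98% and 4.17% of all genes tested. Nas2Del_WT_1026 was the highest mouse for 15 of the 20, against 21.8% of all genes. *Dnmt3b*, a DNA methyltransferase that in mice methylates protocadherin promoters in the embryo, had the smallest p. Its level was 0.64, 0.87 and 0.68 CPM in the *Slc13a4*+/- mice and 0.42, 0.38 and 0.51 CPM in the wild-type mice. The *Slc13a4*+/- values all lay above the wild-type values, and the log2 fold change of 0.73 (SE 0.21) had an adjusted p of 0.499 in edgeR.

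*Tet2*, an enzyme that oxidizes methylated cytosine, had 47.5, 51.9 and 49.0 CPM against 41.9, 42.0 and 47.3 CPM, with a gap of less than 1 CPM between Nas2Del_Het_1024 and Nas2Del_WT_1026. For *Tet2* edgeR gave 0.18 on the log2 scale (SE 0.058, adjusted p = 0.499). DESeq2 with length offsets called *Tet2* at an adjusted p of 0.00995 and no other gene of these 3 lists, and edgeR called it without Nas2Del_WT_1026 at an adjusted p of 0.092, where 1.29% of all genes were called. *Tet3*, an enzyme of the same family named here after its values were seen, was the gene on the lower side. It had 74.05, 80.3 and 82.2 CPM in the *Slc13a4*+/- mice and 85.2, 85.6 and 101.1 CPM in the wild-type mice, with no overlap, or -0.20 on the log2 scale (SE 0.072, adjusted p = 0.516 in edgeR). Of 19 genes for cleavage and cytoplasmic partners of the protocadherins, 1 was at an unadjusted p under 0.05, against 9.15% of all genes tested. This was *Nlgn1*, a postsynaptic adhesion protein, 0.11 higher on the log2 scale (SE 0.038, adjusted p = 0.506 in edgeR). DESeq2 without Nas2Del_WT_1026 called *Nlgn1* at an adjusted p of 0.011, where it called 8.84% of all genes with an adjusted p. Of 42 tested genes within 1 Mb of the members, 4 on the higher and 2 on the lower side had an unadjusted p under 0.05, against 4.98% and 4.17% of all genes tested.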

How the data were processed

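Stranded, rRNA-depleted libraries from whole forebrain at P20 (3 *Slc13a4*+/- mice, 3 wild-type mice) were quantified by the authors with Salmon (v1.2.0). Per transcript the authors deposited estimated counts, which need not be whole, and TPM, which is scaled by transcript length and sums to 1000000 in each mouse. The sources used here do not name the transcript set or build of the Salmon index. Of 117135 transcripts, 115973 were matched by identifier to GENCODE M21 (GRCm38), and the 1162 others, at most 0.645% of counts, were left out. Estimated counts were summed per gene and rounded. Genotypes were compared with the quasi-likelihood test of edgeR 4.0.16 in R 4.3.3 (TMM, default low-count filter, 17096 genes) with Benjamini-Hochberg adjustment over all genes and a threshold of 0.1. The DESeq2 Wald test (DESeq2 1.42.0), which the study used, was the alternative, with others for normalization, filter, length offsets, transcript classes and each mouse left out. Scripts were tested on simulated data. Totals, shares and spreads over members have no test. Tables were joined and figures drawn with Python 3.11.15.

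Members and gene lists were chosen with earlier results of these data known. The text names the C-type genes, and the 2 highest genes and the lowest by TPM in alpha, beta, gamma A and gamma B. It names the 2 higher and 2 lower genes of each cluster with the smallest p. The 3 members with the largest and the 3 with the smallest spread are also named, as are members called by either tool. Of the 3 lists of genes tied to the clustered protocadherins, it names called genes and the gene with the smallest p of each. Cell type markers fall outside this rule. No nucleotide sequence is printed.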

Additional observations from a re-analysis of the deposited data

How the results depend on the processing

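The count of 0 called members held in edgeR under every alternative run but leaving out Nas2Del_WT_1026, and in DESeq2 with and without length offsets on all 6 mice. Other mice left out, other filters and transcript classes were run in edgeR only. Leaving out each mouse in edgeR gave 0 to 1, and DESeq2 without Nas2Del_WT_1026, added after the data were seen, gave 2. The C-type share of alpha, 42.4% over the 6 mice, was 46.0% by estimated counts, 43.5% with protein-coding transcripts and 46.1% with main transcripts (added after the data were seen). That of gamma, 56.7%, was 52.7% by estimated counts and 52.5% with main transcripts. The log2 ratio of the total of all members ran from -0.039 to 0.043, and the largest value came without Nas2Del_WT_1026. The median spread of the members ran from 0.0888 to 0.121. Of 31 named genes, 10 changed the sign of their log2 fold change under some alternative, none of them past the threshold. *Pcdhb17* went to -0.0027 with length offsets in edgeR and -0.0041 in DESeq2. The *Pcdha11* gene ENSMUSG00000102206 went to -0.072 without retained-intron transcripts and -0.069 with protein-coding transcripts alone. DESeq2 without Nas2Del_WT_1026 gave 0.11 for *Pcdhac1*, 0.011 for *Pcdhac2*, 0.0045 for *Pcdhgc5*, 0.073 for *Pcdha12* and 0.00061 for *Pcdhb9*. Leaving out each mouse in edgeR gave -0.10 to 0.11 for *Pcdhac1*, -0.088 to 0.012 for *Pcdhac2*, -0.13 to 0.0064 for *Pcdhgc5*, -0.038 to 0.58 for *Pcdha8*, -0.22 to 0.075 for *Pcdha12*, -0.065 to 0.11 for *Pcdhb17*, -0.052 to 0.0042 for *Pcdhb9*, -0.078 to 0.0093 for *Pcdhga3*, -0.013 to 0.051 for *Pcdhgb6* and -0.013 to 0.36 for the *Pcdha11* gene. No paired analysis was possible because the mice of the genotypes share no replicate number and litters are not given. The causes of these changes were not tested. With 3 mice per genotype and shared exons, small changes of single isoforms cannot be resolved.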
